A study of Drosophila melanogaster with 2 samples.

Results

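The genes described here are 89 of the 13945 protein-coding genes of *Drosophila melanogaster* on the 6 chromosome arms with peaks, chosen by symbol as genes of vesicle and membrane traffic. They comprise the numbered Rab, Arf, Sec and Vps genes, the COP genes of the coatomer, and the subunits of the Rab geranylgeranyl transferase, with names and start sites from Ensembl on dm6. The measurement was chromatin immunoprecipitation with sequencing of CG18011, a zinc finger protein, in whole embryos of mixed sex aged 0 to 24 h. The embryos came from 1 transgenic line that stably expressed CG18011 with GFP at its C terminus, and the fusion protein was recovered with an antibody against GFP. Chromatin had been sonicated to fragments of 200 to 800 bp, and the 2 libraries, labelled biological replicates 1 and 2, form 1 group with no other condition. All embryonic tissues and stages were pooled, no control library was analysed here, and the labels and files do not state the read depth of the libraries. With 1 group, genes are compared with other genes, and the spread between the 2 libraries is the error of a single site.

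Proteins of this class move membrane and cargo between the endoplasmic reticulum (ER), the Golgi, endosomes, lysosomes and the cell surface. Rab and Arf GTPases mark membranes and recruit effectors, coat proteins bud vesicles, tethers and SNAREs let vesicles fuse with their target, and ESCRT and retromer sort cargo on endosomes. Most cells use these genes, and in the embryo they serve cellularisation, epithelial polarity and secretion of cuticle.

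Of the 89 genes, 31 had the summit of a reproducible CG18011 peak no more than 500 bp from a start site, and these are called bound below. That is 34.8% (95% exact interval 25.0 to 45.7%), beside 17.9% of all protein-coding genes. Reproducible means that the peak is in the optimal list of the authors, which applies a threshold on the irreproducible discovery rate (IDR) and holds 3290 peaks. Within 2000 bp the count was 37 of 89, or 41.6% (31.2 to 52.5%), beside 25.0% of all protein-coding genes. The intervals cover counting error only, and the genes were picked by name and not at random, so these shares describe the list and were not tested.

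Part of the difference in counts was already present before any threshold on reproducibility. A peak of the pooled libraries, from a list of 29999 peaks that were called before such a threshold, lay within 500 bp of a start of 69 of the 89 genes (77.5%), beside 53.6% of all protein-coding genes. Among genes with such a pooled peak, 31 of 69 were bound (44.9%, 32.9 to 57.4%), beside 33.4%, and that interval includes the share of all genes. Of the 58 genes that were not bound, 6 had a reproducible summit between 500 and 2000 bp from a start, namely Rab1, Rab18, Rab32, Sec13, Sec24AB and Vps13. A further 34 had only a pooled peak within 500 bp, 7 only a pooled peak between 500 and 2000 bp, and 11 had no pooled peak within 2000 bp.

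**Figure D1:**
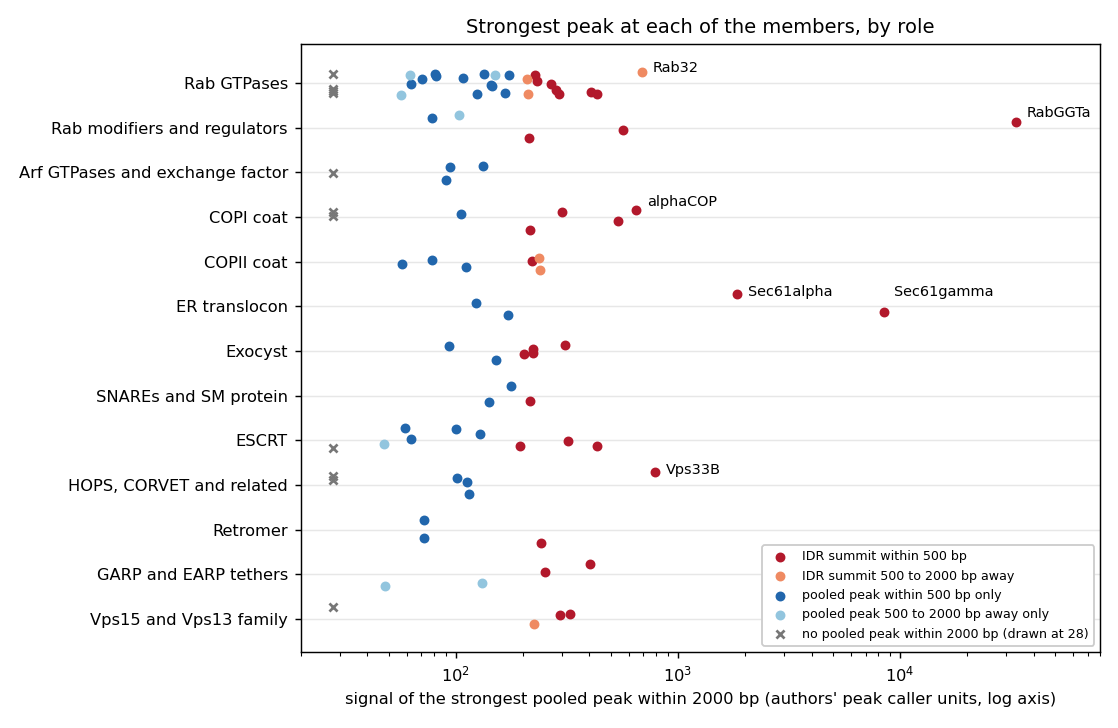
Signal of the strongest pooled peak within 2000 bp of a start site of each gene (horizontal log axis, unit of the authors' peak caller), with the 89 genes in 13 role groups. Each point is 1 gene, coloured by whether its peak is in the IDR list, and crosses at the left are the 11 genes with no pooled peak there; RabGGTa at 33314 and Sec61gamma at 8443 stand to the right of the other genes.

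The reproducible peaks at these genes ranged widely in height. The signal is the value that the authors' peak caller gave to each peak of the pooled libraries. At the 31 bound genes its median was 268.0, with a range of 181.8 to 8443, while the median over all 2494 bound protein-coding genes was 302.0. Of the 31, 14 lay above 279.9, the median of the IDR list (45.2%, 27.3 to 64.0%), beside 55.8% of all bound protein-coding genes, which that interval includes. Sec61gamma and Sec61alpha, 2 of the 31, were among the 329 strongest peaks, beside 10.1%. The sequences at the summits of the 5 strongest peaks within 500 bp, and of the strong peak upstream of RabGGTa, are shown here because the largest values of the list belong to them. They are forward-strand dm6 sequence from RefSeq's genome, at chr3R:5127036-5127156 for RabGGTa, chrX:19643220-19643326 for Sec61gamma, chr2L:6480670-6480790 for Sec61alpha, chr3R:25473232-25473352 for Vps33B, chr3L:1645271-1645391 for alphaCOP and chr2L:1611290-1611409 for Rab3GAP1. Capitals mark matches to the letters searched for below: CGATA in RabGGTa, CAGCTG in Sec61gamma, the joined word with 2 mismatches in Sec61alpha and Vps33B, and GAGAG and TATAAA on the reverse strand in alphaCOP. The Rab3GAP1 stretch holds none of them.
RabGGTa: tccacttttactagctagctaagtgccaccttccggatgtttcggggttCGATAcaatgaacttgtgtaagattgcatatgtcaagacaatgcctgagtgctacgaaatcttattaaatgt
Sec61gamma: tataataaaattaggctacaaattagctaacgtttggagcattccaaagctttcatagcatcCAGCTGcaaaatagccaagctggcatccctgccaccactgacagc
Sec61alpha: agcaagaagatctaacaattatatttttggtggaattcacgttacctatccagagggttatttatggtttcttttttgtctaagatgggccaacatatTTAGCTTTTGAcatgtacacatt
Vps33B: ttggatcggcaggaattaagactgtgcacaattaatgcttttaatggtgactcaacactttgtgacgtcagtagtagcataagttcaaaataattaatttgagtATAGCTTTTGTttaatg
alphaCOP: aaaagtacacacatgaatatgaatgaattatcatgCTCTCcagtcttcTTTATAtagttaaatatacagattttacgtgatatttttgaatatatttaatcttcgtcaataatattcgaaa
Rab3GAP1: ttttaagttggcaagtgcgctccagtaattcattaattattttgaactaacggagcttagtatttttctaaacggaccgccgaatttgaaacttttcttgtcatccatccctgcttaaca

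For single peaks, the signal of each library was divided by that library's median over the IDR peaks, 64.6 in replicate 1 and 222.8 in replicate 2, so that 1 stands for a typical reproducible peak. Both libraries had a peak over the summit at 29 of the 31 bound genes. The median relative signal of these 29 was 0.965 in replicate 1 and 0.943 in replicate 2. At 14 of the 29 genes replicate 1 was the higher. In the single libraries, 24 of the 31 genes also had one of the 3290 strongest peaks of each library within 500 bp. RabGGTb lacked one in replicate 2, and Rab2, RabGGTa, Vps13D, Vps28, Vps29 and beta'COP lacked one in replicate 1. So replicate 1 kept 25 of the 31, beside 2007 of the 2494 bound protein-coding genes, and replicate 2 kept 30, beside 2369. The IDR list was itself thresholded on reproducibility between these libraries, so this is not an independent check. Sec61gamma, Sec61alpha and Vps33B stood above a typical peak in both libraries, whereas Vps13D, Vps29 and Vps28 lay under 0.5 in replicate 1 and between 0.757 and 1.18 in replicate 2.

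**Figure D2:**
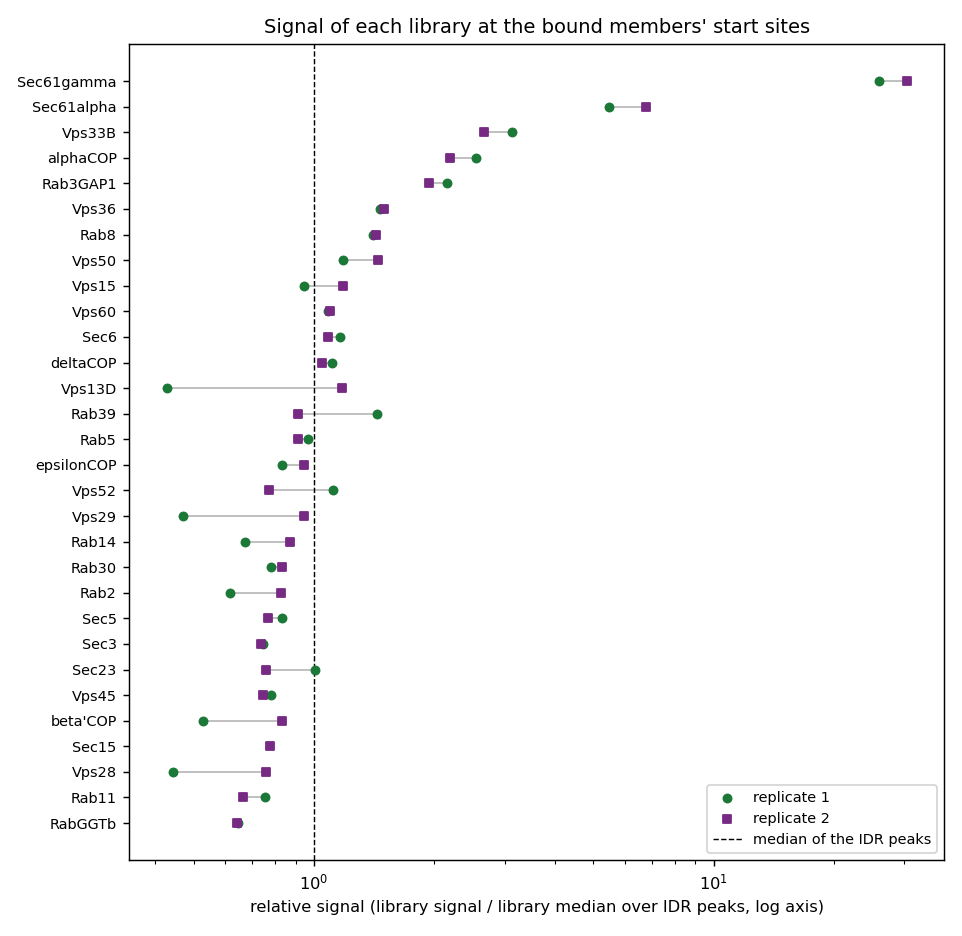
Relative signal of replicate 1 (circles) and replicate 2 (squares) at the summit within 500 bp of each bound gene, on a log axis, with the dashed line at the median of the IDR peaks. Sec61gamma reached 26.0 and 30.6 and Sec61alpha 5.47 and 6.79; Sec15 has replicate 2 alone, and RabGGTa is left out because its start summit shares an interval with a far stronger one.

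The ER translocon is the channel through which new secretory and membrane proteins enter the ER. Sec61gamma, its small subunit, had a peak of signal 8443, rank 112 of 3290, with its summit 47 bp upstream of the start. Replicate 1 gave this summit a signal of 1678 and replicate 2 gave it 6811. The relative signal was 26.0 and 30.6, or 28.3 ± 3.24 (SD, n = 2), so the spread between the libraries was small beside the distance from a typical peak. The peak spans 1007 bp, and the start of the divergent gene CG12237 lies 458 bp from that of Sec61gamma. Sec61alpha, which forms the pore, had a peak of 1852, rank 172, with its summit 155 bp upstream of the start. Its relative signal was 5.47 and 6.79, or 6.13 ± 0.932 (SD, n = 2). The divergent neighbour here is Daxx, 354 bp away, and the summit also lies inside the noncoding gene lncRNA:CR45463, on the strand of Sec61alpha. Sec61beta, the remaining channel subunit, was not bound: its pooled peak, 19 bp into the gene, had a signal of 122.7 and a relative signal of 0.448 and 0.461. Sec63, a partner of the channel, had a pooled peak of 171.6 that lies nearer to the start of pst. The 3 genes of the channel, which work together as 1 complex, thus differed in signal by far more than the libraries did.

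Among the modifiers of Rab proteins, RabGGTa carried the highest value of the whole list, but not within 500 bp of its start. RabGGTa and RabGGTb are the alpha and beta subunits of the Rab geranylgeranyl transferase, which adds the lipid anchors that hold Rab proteins on membranes. The summit 991 bp upstream of RabGGTa had a signal of 33314, and it ranked 9 in the IDR list and 9 in each library. Replicate 1 gave it 6790 and replicate 2 gave it 26687, which is a relative signal of 105.2 and 119.8, or 112.5 ± 10.3 (SD, n = 2). No protein-coding start lies closer to that summit than that of RabGGTa. The nearest annotated feature was a copy of the transposable element INE-1 304 bp away, and the next protein-coding gene, CG12589, was 9961 bp away. The summit is thus in intergenic DNA, and whether it belongs to the RabGGTa promoter was not tested.

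RabGGTa also counted as bound through a weak summit of 212.8, 24 bp upstream of its start. Both summits lie in 1 interval of 1660 bp, chr3R:5126559-5128218. Replicate 2 had a summit of its own at the start, with a signal of 181.3 and a relative signal of 0.821. The replicate 1 interval, 979 bp wide, did not reach the start. The call at the start of RabGGTa therefore rested on 1 library, beside a strong peak that both libraries shared. The partner subunit gene RabGGTb had the weakest reproducible summit of the list, 181.8 at 62 bp upstream of its start, with a relative signal of 0.643 and 0.642. A second summit of 214.0, 785 bp upstream, lies 17 bp from the start of Sbat.

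**Figure D3:**
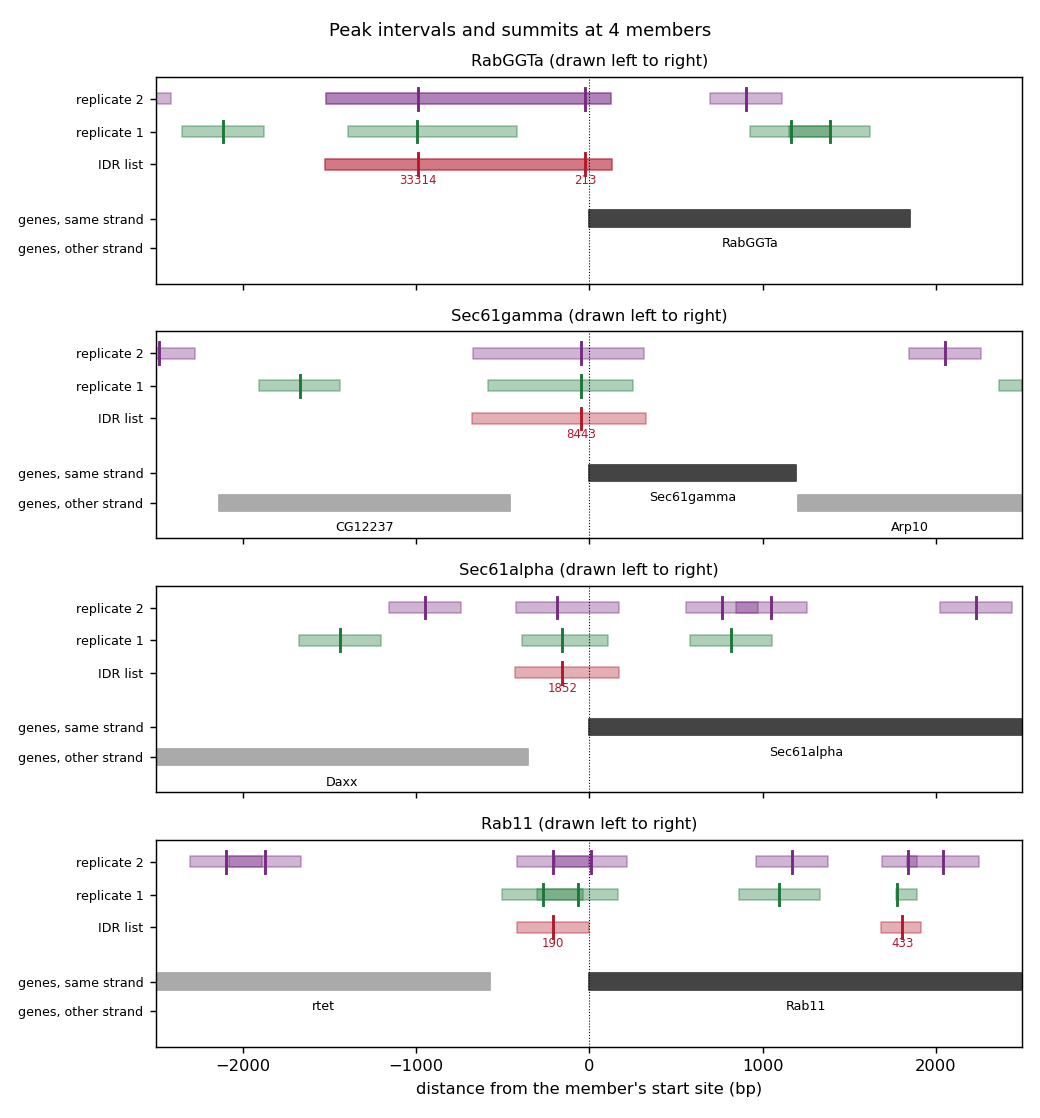
Peak intervals (boxes) and summits (vertical marks) in the IDR list and in each library around RabGGTa, Sec61gamma, Sec61alpha and Rab11, against distance from the start site in bp, with each gene drawn from left to right and the IDR signal beside its summit. At RabGGTa the summit of 33314 is 991 bp upstream and shares its interval with the summit of 213 at the start; Rab11 has a summit of 190 upstream and one of 433 in its gene.

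Rab3GAP1, a subunit of a complex that stimulates GTP hydrolysis by Rab3, had a peak of 563.3 between its start and that of CG14352. Its relative signal was 2.15 and 1.94, or 2.05 ± 0.153 (SD, n = 2). The summit was 193 bp from the start of Rab3GAP1 and 60 bp from that of CG14352. The other subunit of the complex, Rab3-GAP, had only a pooled peak of 78.5, and Rab3-GEF, the exchange factor of Rab3, only one of 103.7 at 898 bp into the gene.

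Of the 28 Rab GTPases, 7 were bound, 3 had a reproducible summit between 500 and 2000 bp, 14 had pooled peaks only and 4 had none. Beside these 7, and the 10 within 2000 bp, the shares of all protein-coding genes were 17.9% and 25.0%. The same shares stand beside the counts of the other role groups, which are smaller, and differences between groups were not tested. The 7 bound Rab genes reached at most 406.9, so no Rab gene had a peak at its start comparable with those of the translocon. Rab8, which acts in exocytosis, had a summit 30 bp inside its 5′ UTR with a relative signal of 1.41 and 1.43, and its start lies 61 bp from that of the divergent Usp32. Rab39, a Rab of lysosomes, had one of 290.5 that lay in the 5′ UTR of its neighbour Pdp, 92 bp from the start of that gene and 393 bp from its own. Rab5, the Rab of early endosomes, had a summit of 269.3 in its own intron, 313 bp upstream of an internal start. A different start of Rab5 lies 72 bp from that of the divergent Axud1. Rab14, Rab30 and Rab2, which act in endosomal and Golgi traffic, had summits of 241.2, 233.2 and 227.1 within 44 bp of their starts. All 3 have a close divergent neighbour, which is l(2)34Fd at 60 bp for Rab14, Mob4 at 78 bp for Rab2 and Caper for Rab30.

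Rab11, the Rab of recycling endosomes, had a summit of 189.9, 209 bp upstream, near the lower end of the IDR list, and a stronger one in its intron. The intronic summit, 1807 bp downstream of the start, had a signal of 432.9 and a relative signal of 1.38 and 1.57, or 1.48 ± 0.132 (SD, n = 2). At Rab14 an intronic summit of 281.3, 564 bp downstream, likewise stood above the one at the start. This intronic summit also lies inside the noncoding gene lncRNA:CR44851, on the other strand. Rab1, which acts between ER and Golgi, had only an intronic summit of 210.6, 878 bp downstream, whose relative signal was 0.328 in replicate 1 and 0.825 in replicate 2. The remaining Rab summits in the wider window sit at other genes. Rab32, a Rab of lysosome-related organelles, counted through a peak of 687.7 with a relative signal of 2.42 ± 0.115 (SD, n = 2), but its summit is 183 bp from the start of Rme-8. Rab18, of ER and lipid droplets, counted through a summit of 209.6 that is 20 bp from the start of RpL35, a ribosomal protein gene.

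The Rab genes without a reproducible summit included well-known ones. Rab7, of late endosomes, had a pooled peak of 166.2 at its start, and Rab10, of polarised exocytosis, one of 134.0. Rab26 had one of 172.8 and Rab40 one of 146.0. Rab3, Rab19, Rab23, Rab27 and Rab35 lay between 70.6 and 122.2. Lower pooled peaks lay at Rab6, of the Golgi, with 63.0 and at Rab4, of early recycling, with 54.4. Rab9D and Rab9Db had pooled peaks of 62.0 and 56.5 more than 1000 bp from a start. The strongest pooled peak within 2000 bp of Rab9, with 149.8, lies 64 bp from the start of RtcB, and the pooled summit nearest to Rab9 was 725 bp away. No pooled peak lay within 2000 bp of Rab21, Rab9E, Rab9Fa or Rab9Fb. The last 3 belong with Rab9D and Rab9Db to a group of related genes on the X chromosome, and no label or file says how the authors treated reads that map to more than 1 place. Values at such copies are therefore uncertain.

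None of the 4 genes of the Arf group was bound. Arf1, which recruits coatomer to Golgi membranes, had a pooled peak of 133.0 with a relative signal of 0.656 and 0.401. The summit of that peak lies in an intron of Arf1, 29 bp upstream of an internal start. Arf4, on chromosome 4, had a pooled peak of 94.0, and Arf6, of the plasma membrane, one of 90.3. Sec71, an Arf exchange factor, had no pooled peak within 2000 bp. Of the 7 subunit genes of the coatomer that Arf1 recruits, 4 were bound.

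Coatomer, or COPI, coats vesicles that return from the Golgi to the ER. alphaCOP had a peak of 647.5, 132 bp upstream of its start, with a signal of 164.6 in replicate 1 and 487.1 in replicate 2. Its relative signal was 2.55 and 2.19, or 2.37 ± 0.257 (SD, n = 2), and CG13919 starts 268 bp away on the other strand. deltaCOP had a summit of 299.3 and has no divergent start. epsilonCOP had a summit of 268.0 that is 64 bp from the start of KFase, and beta'COP had one of 215.9 that is 112 bp from that of CG9302. A stronger summit of 535.0, with a relative signal of 1.96 ± 0.206 (SD, n = 2), lay 1844 bp downstream of the epsilonCOP start, beyond the gene and 91 bp from the start of Phf5a. betaCOP had a pooled peak of 105.8, seen in replicate 2, and gammaCOP and zetaCOP had none within 2000 bp. Subunits of 1 complex thus ranged from no pooled peak to a mean relative signal of 2.37.

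COPII coats vesicles that leave the ER. Sec23, of its inner layer, was the only bound gene of 6, with a summit of 220.2 that is 35 bp upstream of the start. Relative to that summit, the library summits stood at -107 bp in replicate 1 and 63 bp in replicate 2. Sec13, of the outer layer, had an intronic summit of 238.4 at 578 bp downstream, and Sec24AB one of 236.3 at 850 bp, where the noncoding gene asRNA:CR45467 overlaps it on the other strand. Sec16, the scaffold of ER exit sites, had a pooled peak of 111.2, Sec24CD one of 78.0 and Sec31 one of 57.1. Of the 3 summits of the COPII genes in the IDR list, all lay below its median of 279.9.

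The exocyst tethers secretory vesicles to the plasma membrane. Sec6, Sec5, Sec3 and Sec15 were bound, with signals of 309.1, 223.8, 223.5 and 202.2. Sec6 had a relative signal of 1.16 and 1.08, and Atg7 starts 205 bp away. The Sec5 summit lay between 2 traffic genes, 45 bp from the start of Sec5 and 193 bp from that of Cog3, a subunit of the Golgi tether COG. At Sec15 only replicate 2 had a peak over the summit, with a relative signal of 0.776. Sec8 and Sec10 had pooled peaks of 151.9 and 92.7, below the IDR list. The 6 exocyst genes of the list thus ran from 92.7 to 309.1, on both sides of the threshold. Exo70 and Exo84, exocyst genes of the wider list, were not bound.

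Of the 3 fusion proteins, Vps45, an SM protein of endosomal fusion, was bound with 216.6 at 41 bp upstream. The SNAREs Sec20 and Sec22 had pooled peaks of 176.8 and 141.6. Sec20 missed the list most narrowly of all: the lowest IDR peak had 178.9. Its pooled peak ranked 3346 and lies at the start of dgrn, which is 83 bp from that of Sec20 on the other strand. The values on either side of the threshold were close, with RabGGTb at 181.8, Rab11 at 189.9 and Vps28 at 195.4 just inside it, and Sec20 at 176.8, Rab26 at 172.8 and Sec63 at 171.6 just outside.

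ESCRT complexes sort ubiquitinated cargo into vesicles inside endosomes. Vps36, of ESCRT-II, had a summit of 434.2 with a signal of 94.2 in replicate 1 and 333.1 in replicate 2. The relative signal was 1.46 and 1.50, or 1.48 ± 0.025 (SD, n = 2), and the summit was 23 bp from the start of Liprin-beta and 119 bp from that of Vps36. Vps60, related to ESCRT-III, had a summit of 319.8 in its own 5′ UTR, with relative signals of 1.08 and 1.10. Vps28, of ESCRT-I, had one of 195.4 with 0.443 in replicate 1 and 0.757 in replicate 2. The other 6 of 9 genes were not bound. Vps2, of ESCRT-III, had a pooled peak of 128.0 nearest to the start of Exo84, an exocyst gene, and Vps4, the ATPase that takes ESCRT-III apart, had one of 58.9. Vps24 had 92.3, and Vps37B had 47.5 at 844 bp upstream. Vps20 had 45.2, the lowest within 500 bp, and the nearest pooled summit to Vps25 was 2009 bp away.

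HOPS and CORVET tether endosomes and lysosomes. Vps33B, an SM family protein, was the only bound gene of the 6 in the group of HOPS, CORVET and related genes. The group was drawn by symbol and need not hold every subunit of these complexes. For example, it leaves out car of the wider list, which was bound with 203.1 at a summit nearer to Grip84. Being in this group does not make Vps33B a subunit of either complex. The Vps33B peak of 790.5 was the highest at a start after those of the translocon. Replicate 1 gave a signal of 201.9 and replicate 2 gave 594.2, which is a relative signal of 3.13 and 2.67, or 2.90 ± 0.326 (SD, n = 2). The summit was 198 bp upstream, with Fur1, a furin protease gene, starting 432 bp away. Vps16B, the partner of Vps33B, had no pooled peak within 2000 bp, nor had Vps11, which is in the core of HOPS and CORVET. Vps39, Vps8 and Vps16A had pooled peaks of 114.6, 112.7 and 101.7.

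Retromer returns receptors from endosomes. Its core gene Vps29 was bound with 241.4, with relative signals of 0.469 and 0.943, while Vps35 and Vps26 had pooled peaks of 71.6 and 56.5. Of the GARP and EARP tethers, which receive vesicles from endosomes, Vps50 was bound with 402.8 and Vps52 with 251.0. Vps50 had relative signals of 1.18 and 1.45 and its summit was nearer to PIG-A, while that of Vps52 was nearer to Elp4. Vps53 and Vps51 had pooled peaks of 131.8 and 47.8 more than 1000 bp from their starts, and that of Vps53 is 2 bp from the start of Psf2. Vps15, the regulatory subunit of the Vps34 lipid kinase complex, was bound with 327.0 and relative signals of 0.945 and 1.18.

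Vps13 proteins transfer lipids between membranes. Vps13D had a summit of 294.3 in its 5′ UTR whose relative signal was 0.427 in replicate 1 and 1.18 in replicate 2. Vps13 counted in the wider window through a summit of 225.9 that is 77 bp from the start of Rpe. Vps13B had no pooled peak within 2000 bp, although a replicate 1 peak lay within 500 bp of its start. Similar peaks of 1 library alone lay at Vps11 in replicate 1 and at Sec71 and zetaCOP in replicate 2. Across the 89 genes, 58 had a replicate 1 peak within 500 bp (65.2%, beside 48.6% of all genes) and 74 had a replicate 2 peak (83.1%, beside 53.9%).

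The summit within 500 bp lay upstream of the start in 28 of the 31 bound genes (90.3%), beside 86.2% of all bound protein-coding genes, and the exceptions were Rab8, Vps13D and Vps60. The median distance regardless of side was 89 bp (range 18 to 393), beside 130 bp over all bound genes. With respect to protein-coding genes, 26 summits were intergenic, 4 were in a 5′ UTR and 1 was in an intron. At 7 of the 31 genes a library summit lay more than 50 bp from the IDR summit. Neither the parts nor these shifts were counted over all bound genes, so they describe the list alone. The 31 genes had 31 different summits, so no pair of them shared a peak. By arm, 11 of 17 genes were bound on 2L, 4 of 16 on 2R, 6 of 13 on 3L, 7 of 22 on 3R, 0 of 1 on chromosome 4 and 3 of 20 on the X chromosome, which holds the related Rab9 copies. The shares of all protein-coding genes on these arms were 19.1%, 16.8%, 18.3%, 19.4%, 7.50% and 15.3%.

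**Figure D4:**
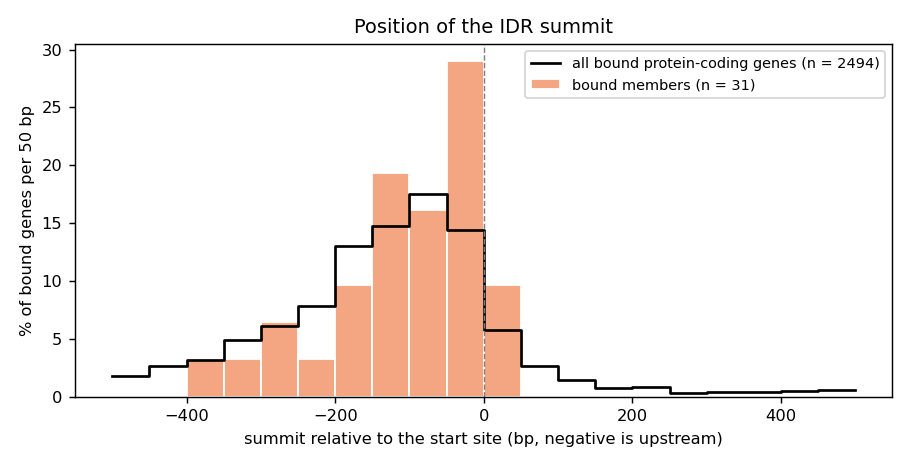
Position of the strongest reproducible summit within 500 bp, relative to the start site, as percent of bound genes per 50 bp, for the 31 bound genes of the list (bars) and all 2494 bound protein-coding genes (line). Most summits of both sets lie in the 200 bp before the start, and in the list those past the start lie at most 37 bp past it.

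Bound genes of the list were mostly genes with a divergent neighbour, meaning a start of another protein-coding gene no more than 1000 bp away, on the opposite strand and pointing the other way. This held for 27 of the 31 (87.1%, 70.2 to 96.4%), beside 64.6% of all bound protein-coding genes. The exceptions were deltaCOP, RabGGTa, Vps28 and Rab11, and at Rab5 the divergent start is another than the one beside the summit. Such starts were frequent in the list as a whole, since 28 of the 58 genes that were not bound also had one (48.3%), beside 30.0% of all genes that were not bound. Among genes with a divergent start, 27 of 55 were bound (49.1%, 35.4 to 62.9%), beside 31.9% of all such genes. Among genes without one, 4 of 34 were bound (11.8%, 3.30 to 27.5%), beside 9.92%, so the share here was near that of all genes. A summit between 2 starts counts for both genes, and 7 of the 31 summits were nearer to the neighbour's start: those of Rab3GAP1, Vps36, Vps50, Rab39, epsilonCOP, Vps52 and beta'COP. Which of the pair a peak serves cannot be told apart. When each summit counted only for the gene with the nearest start, 24 of the 89 genes were bound (27.0%), beside 13.2% of all genes. That kept 24 of the 31 bound genes, beside 1842 of the 2494 bound protein-coding genes.

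**Figure D5:**
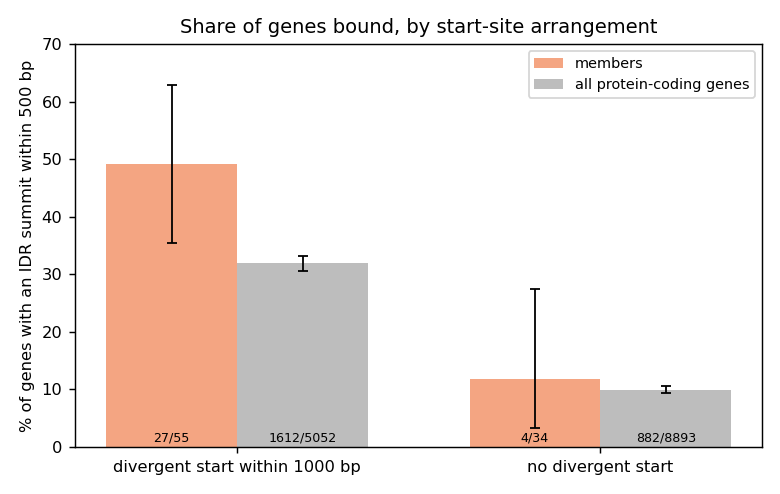
Percent of genes with a reproducible summit within 500 bp of a start, for genes with and without a divergent start within 1000 bp, in the list (orange) and among all protein-coding genes (grey), with 95% exact binomial intervals. The list stands at 49.1% and 11.8%, and all genes at 31.9% and 9.92%.

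Sequence at the summits was searched within 100 bp on both strands for letters of known promoter elements. TATCGATA, the DRE bound by the factor DREF, lay at 5 of the 31 bound genes (16.1%), beside 8.48% of the 1945 IDR summits at starts and 7.84% of the outermost starts of all protein-coding genes. These 5 were Rab2, Rab8, Rab14, Rab30 and Vps15, so 4 of the 7 bound Rab genes had it. The stretches around it are shown for 4 of the 5, without Rab2, because this element was shared by several genes of 1 family. Capitals mark the DRE on the forward strand of dm6, at chr3L:19871079-19871106 for Rab8, chr2L:14355054-14355081 for Rab14, chr2L:7032636-7032663 for Rab30 and chr3R:9245876-9245903 for Vps15.
Rab8: cgccgtcgtcTATCGATAgcttatcgta
Rab14: gtgcgccctcTATCGATAgacacgattg
Rab30: tttttctcggTATCGATAgatcgacgtt
Vps15: caatcgatgtTATCGATAagtacactgg
The bases around the DRE differed between these 4 genes, and its position there relative to the summit ran from 63 bp to the left at Rab14 to 48 bp to the right at Rab8, counted on the forward strand. The shorter CGATA, letters bound by the insulator protein BEAF-32, which every DRE also contains, lay at 17 of 31 summits (54.8%), beside 40.2% of IDR summits at starts and 39.4% of all starts. GAGAG, letters of the GAGA factor, lay at 2, Vps28 and alphaCOP (6.45%), beside 21.4% and 22.5%. TATAAA lay at 11 (35.5%), beside 34.2% and 29.2%. CAGCTG lay at 5 (16.1%), beside 15.2% and 13.8%, and AACAGCTG, which contains it, at 4 (12.9%), beside 7.15% and 6.05%. GGTCACACT, the core of the core promoter element Motif 1, lay at Rab14 and deltaCOP, beside 3.75% and 5.29%, and the E-box CACGTG at Rab14 and Rab5, beside 3.39% and 2.88%. Matches describe letters in these windows and were not tested.

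The strongest CG18011 peaks elsewhere were searched for words they share, and the peaks of the list for the same words. Words of 8 letters were ranked over the 326 of the 329 strongest IDR peaks that lie more than 2000 bp from a start of these genes, against windows moved by 1000 bp. The first, AGCTTTTG, lay at 53 of the 326 summits and at 6 of the moved windows. Joining 4 overlapping words of that ranking gave ACAAAAGCTGA, which with at most 2 mismatches lay at 31.9% of those summits and at 7.36% of moved windows. The words were picked for differing between these same summits and windows, so the gap between these 2 shares follows from the selection and tests nothing. With at most 2 mismatches the joined word lay at 3 of the 31 bound genes (9.68%), Sec61alpha, Vps33B and epsilonCOP. This stands beside 12.6% of IDR summits at starts and 10.8% of all starts. With at most 1 mismatch it lay at 0 of the 31, beside 2.31% of IDR summits at starts and 0.961% of all starts. The closest match within 100 bp of the strong summits of RabGGTa and Sec61gamma had 3 mismatches. The stretches capitalised at Sec61alpha and Vps33B, TTAGCTTTTGA and ATAGCTTTTGT, match it on the reverse strand and begin 38 and 44 bp to the right of the summit.

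Other genes of membrane traffic, listed by name from the same pathways and disjoint from the 89, were counted in the same way. Of 144 such genes, 47 were bound (32.6%, 25.1 to 40.9%), beside 17.9% of all protein-coding genes, and 119 had a pooled peak within 500 bp. Of those 119, 39.5% were bound, beside 33.4% of all genes with such a peak, and the median signal of the 47 was 308.4, beside 302.0. Counting each summit only for the gene with the nearest start left 29 of 144 (20.1%), beside 13.2% of all genes. The strongest was at Nsf2, an ATPase that takes SNARE complexes apart, with 19816 and a relative signal of 65.1 ± 10.6 (SD, n = 2). Cog8, a subunit of the COG tether, had 11588 (38.7 ± 4.39) and step, an Arf exchange factor, had 10678 (36.6 ± 2.38). Lower peaks were those of ArfGAP3 with 2325, CHMP2B of ESCRT-III with 1707 and SsRbeta, a partner of the translocon, with 1564. After them came fws, which encodes a COG subunit, with 1225, TRAM of the translocon with 1071, Arl1, a Golgi GTPase, with 1025, and Rbsn-5, an effector of Rab5, with 651.8. The summits counted for ArfGAP3, CHMP2B, fws and Rbsn-5 are nearer to the starts of CG32452, Tcs5, Lamtor3 and PAPLA1. The 3 strongest of these genes exceeded every peak within 500 bp of a start of the 89.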

How the data were processed

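Peaks of 2 libraries of 1 group were analysed. Per the text deposited with the libraries, the authors called peaks from the alignments and a control on dm6, for each library and for both pooled, and kept an optimal list thresholded on the IDR. The deposited signal is the value of the authors' peak caller. Of the peak caller, aligner, IDR threshold, read depth and scaling for depth, none is stated in the labels or files, and the counting error of a peak is unknown. The dm3 lists were not used, and 1 pooled peak outside the 6 arms was left out. The summit was the deposited offset from the peak's start, and coordinates are 1-based.

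Start sites were those of all protein-coding transcripts in Ensembl release 115, whose dm6 coordinates were checked on the RefSeq genome: 6915 of 6945 forward-strand genes (99.6%) began with ATG. The strongest summit within the window was taken for each gene, and the strongest library peak over an IDR summit gave the library's signal. Shares have 95% Clopper-Pearson intervals. Named are all genes with an IDR summit within 2000 bp, the 5 strongest and 5 weakest with pooled peaks only, all with none, 10 of the wider list, and neighbours with the nearest start; some others were named after their values were seen. The genes and lists were chosen with earlier results of these data known. Of 147 names in the wider list, 144 matched. Alternatives were other windows, starts, peak thresholds, scalings and single libraries. Added after the data were seen were the count by nearest start and the joined word. The search for summits and words was tested on simulated data. Python 3.11.15, numpy 2.4.6, pandas 2.3.3, scipy 1.17.1 and matplotlib 3.10.9 were used.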

Additional observations from a re-analysis of the deposited data

How the results depend on the processing

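The 31 bound genes (34.8%, beside 17.9% of all genes) numbered 27 with summits within 250 bp (30.3%, beside 14.6%), 35 within 1000 bp (39.3%, beside 20.5%), 30 with the outermost start alone (33.7%, beside 2236 of 13945 genes) and 23 when the peak interval had to overlap the start (25.8%, beside 11.7%). The threshold on peaks mattered most. With the 1645 strongest IDR peaks alone, 14 of the 89 genes were bound (15.7%), beside 1391 of all genes (9.97%) and 25 of the wider list. Within 2000 bp these peaks left 19 of the 89 (21.3%), beside 1999 of all genes (14.3%). With the 329 strongest, 2 were bound within 500 bp (2.25%), beside 252 of all genes (1.81%) and 9 of the wider list. When the interval had to overlap the start, 1635 of all genes were bound in place of 2494. Counting a summit only for its nearest start, which was added after the data were seen, left 29 of the 144 genes of the wider list (20.1%, beside 13.2% of all genes) in place of 47. Leaving out each replicate gave, within 2000 bp, 36 to 39 of the 89 genes, beside 3347 to 3492 of all genes. Within 500 bp it gave 31 to 34 bound genes, 40 to 49 of the wider list and 2380 to 2516 of all genes. Without replicate 1, RabGGTb was lost and Rab26, Sec20, Sec63 and Vps13 were gained. Without replicate 2, 6 genes were lost (Rab2, RabGGTa, Vps13D, Vps28, Vps29, beta'COP) and 6 gained (Arf1, Sec13, Sec20, Sec63, Vps39, Vps8). Divergent starts within 500 bp were found for 25 of the 31 in place of 27, and the share of all bound genes at that distance was not computed. A listed motif lay at 28 of the 31 within 100 bp, at 20 within 50 bp and at 30 within 200 bp, beside 77.4%, 51.3% and 94.0% of the IDR summits at starts. Of 40 relative signals, 1 moved by more than its spread under another scaling and 3 under the nearest library summit, where the largest change was at Sec23, from 0.881 to 0.634. No paired analysis was possible because there is only 1 group. Depth is unknown, no control was analysed, and 2 libraries set the error of each site, so a gene below the threshold is not shown to lack CG18011.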

Other observations

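Reproducible peaks also lay deep inside 4 genes of the list. Rab26, which had no reproducible summit at a start, held one of 790.7 in an intron, 8065 bp from its nearest start and 4769 bp from that of Tsr1, which is 2.82 times the median of the IDR list. Rab3-GEF held one of 284.9 in an intron, 19522 bp from its start. The summit in the 3′ UTR of Vps4, with 190.5, lay 418 bp from the start of CG6847, and that in the 3′ UTR of deltaCOP, with 250.7, lay 199 bp from the start of Lamtor5. The intronic summits of Rab26 and Rab3-GEF were far from any protein-coding start, whereas those in the 3′ UTRs lay near the starts of the next genes.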
